A study of Mus musculus with 12 samples.

Results

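The genes described here mostly write, erase or read methyl marks on histones and DNA, or move nucleosomes with ATP. They were taken by symbol from the deposited expression table: every listed gene of the Kdm, Kmt, Setd, Smarc, Chd, Dnmt, Tet, Ezh, Cbx and Arid families, 78 of 12081 genes in all. By family these were 17 Kdm, 17 Kmt and Setd, 12 Smarc, 9 Arid, 9 Chd, 4 Dnmt and Tet, and 10 Ezh and Cbx genes. Each matched 1 protein-coding gene of the mm10 annotation. Genes of these families that the table does not list, such as Tet1, Dnmt3b and Smarca1, were not analysed here.

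The libraries were made from hepatic stellate cells, the retinoid-storing pericytes of the liver that become myofibroblasts when they are activated. All 12 libraries share the Hk2 fl/fl genotype, in which Cre recombinase can delete the gene of the glycolytic enzyme hexokinase 2, and each of the 4 groups has 3 libraries. QS cells were untreated and taken as quiescent straight after isolation by density gradient centrifugation. ACT cells received Ad-GFP, an adenovirus that expresses eGFP, and were cultured for 6 days. KO cells received Ad-Cre, which expresses Cre fused to eGFP, for the same time. LAC cells received Ad-Cre + Lactate, that is the same virus plus 10 mM lactate for 24 h. The labels give no age or sex of the mice and no promoter of the virus, and do not tell whether libraries of a group are separate animals or cultures, so the p-values describe the spread among these libraries, which may be technical. The series title names histone lactylation, a mark that derives from lactate, as its subject.

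Methyl groups on histone H3 mark active or silent chromatin according to the lysine that carries them. Kmt2 and Setd1 enzymes put them on lysine 4 at promoters and enhancers, Ezh1 and Ezh2 put them on lysine 27 as the catalytic subunits of Polycomb repressive complex 2, and the Kdm enzymes take them off. Dnmt enzymes methylate cytosine in DNA and Tet enzymes oxidise the methyl group. Many of the Smarc, Arid and Chd proteins, but not all, belong to or act as remodelling machines that slide or evict nucleosomes. In stellate cells such regulators are known for their part in switching between the quiescent and the myofibroblast programme.

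The targeted gene, Hk2, had 66.7 to 73.5 CPM (read counts normalized to library size) in the QS libraries, 180.5 to 182 CPM in ACT, 10.7 to 13.7 CPM in KO and 18.7 to 19.7 CPM in LAC. Estimated reads per library ran from 4.35 to 14.00 megareads, so that 3 reads were worth 0.212 to 0.720 CPM. Markers of several liver cell types were present and differed between groups. The 20 macrophage markers summed to 7244 to 7376 CPM in the QS libraries, 16519.7 to 16901 in ACT, 547 to 563 in KO and 4266 to 4314 after lactate. Lyz2 alone had a mean of 9350 CPM in ACT. Of the 20, 12 rose and 6 fell in ACT vs QS, and 1 rose and 18 fell in KO vs ACT. In LAC vs KO, 16 rose and 2 fell. The 19 endothelial markers summed to 19040.1 to 19582 CPM in the QS libraries, 888 to 917 in ACT, 10011 to 11224 in KO and 5509 to 5754 after lactate. The 20 hepatocyte markers summed to 2848 to 2904 CPM in the QS libraries, 446 to 460.4 in ACT, 646 to 683 in KO and 375 to 393 after lactate, with Hpd listed at 0 in all ACT libraries and Ahsg, Cps1, Cyp2e1, Fga, Hnf4a, Hpd and Serpina1a at 0 in all LAC libraries. Ass1 and Trf made up most of the sums in ACT and LAC: the other 18 markers, split off after their values were seen, summed to 2278 to 2355 CPM in the QS libraries, 30.9 to 33.8 in ACT, 341 to 358 in KO and 0.788 to 2.01 after lactate. Of the 20, 19 rose and 1 fell in KO vs ACT, and 18 fell and 2 rose in LAC vs KO. The 17 stellate and pericyte markers summed to 5737 to 5877 CPM in the QS libraries, 13828 to 13871 in ACT, 3842 to 4137 in KO and 6959.7 to 7353 after lactate, with none at 0 in a whole group. Their members went opposite ways, so the sum follows its most abundant genes: 11 of 17 fell in ACT vs QS (median -2.43), among them Lrat, Reln, Rgs5 and Colec10, and 6 rose, among them Col1a1, Col1a2, Col3a1 and Acta2. In KO vs ACT 10 rose and 6 fell, the collagen genes and Acta2 among the latter. 12 of 13 cholangiocyte and mesothelial markers were listed and summed to 161 to 173 CPM in the QS libraries, 5234 to 5417 in ACT, 194 to 196 in KO and 1122 to 1141 after lactate, and 3 of 16 lymphocyte and neutrophil markers were listed. Spp1, with a mean of 5083.7 CPM, made up most of the cholangiocyte and mesothelial sum in ACT. Members of that list differed in direction. Wt1, Lrrn4, Upk1b, Upk3b and Gpm6a rose in ACT vs QS and fell in KO vs ACT, like Spp1. Krt8 and Krt18 went the other way in both, Krt19 rose in both, and Msln fell in ACT vs QS. The part of the marked cell types in the results below was not tested. In bulk RNA fewer cells of a type cannot be told apart from less RNA per cell. Of the 22 proliferation markers, 21 rose in ACT vs QS, 16 fell and 2 rose in KO vs ACT, and their sums were 525 to 556 CPM in the QS libraries, 2014 to 2034 in ACT, 1445 to 1476 in KO and 1412 to 1442 after lactate.

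**Figure D1:**
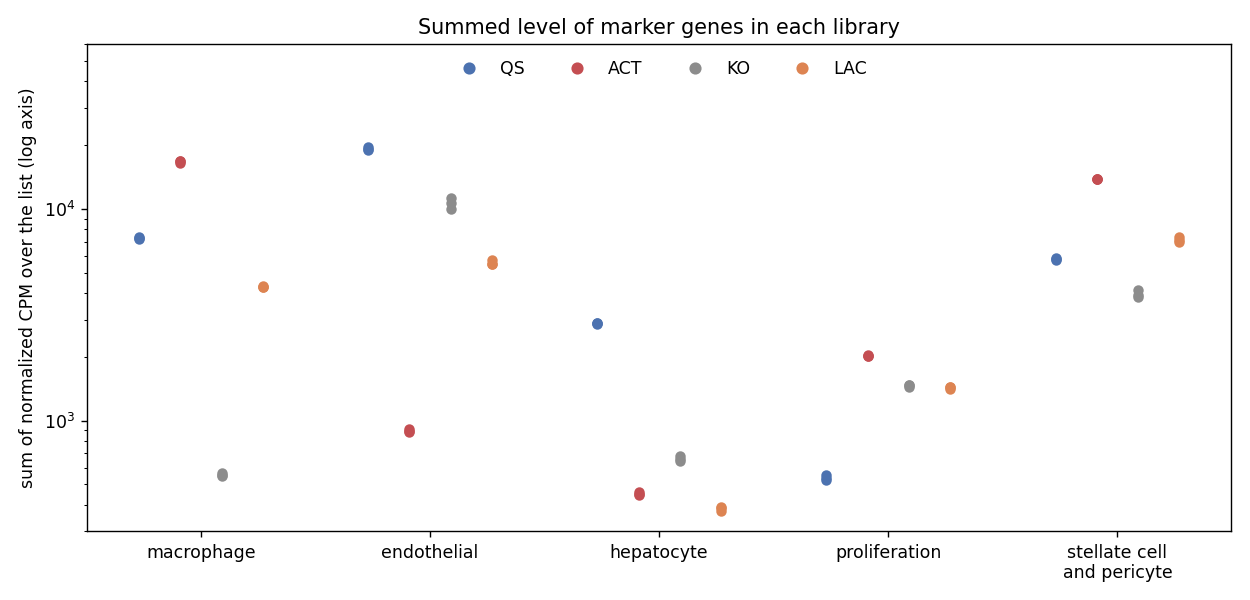
Summed normalized CPM (log axis) of 5 marker lists in each library, 1 point per library, coloured by group. Macrophage sums are highest in ACT and lowest in KO, endothelial sums are highest in QS and lowest in ACT, and the 3 libraries of a group lie close together. The macrophage, hepatocyte and stellate sums rest largely on a few abundant genes, and single markers of these lists differ in direction.

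Most of the chromatin genes were lower in cultured ACT cells than in quiescent cells. Of the 78 genes 47 fell and 18 rose (limma on log2(CPM + 1), adjusted p under 0.05), or 60.3% and 23.1%. Of all 12081 genes, 35.5% fell and 38% rose, together 73.5%. The median log2 fold change of the 78 was -0.41, against 0.03 over all genes, and 14 fell and 5 rose at least 2-fold. Of all 12081 genes, 1800 fell and 1965 rose at least 2-fold. The libraries of ACT and QS did not overlap in 68 of the 78, where 76.3% of all genes did not overlap. Culture, virus and time came together here and cannot be told apart.

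After Cre, 30 of the 78 rose and 15 fell relative to ACT. The background was 36% higher and 26.3% lower of all genes (62.4% in either direction), so the share that rose was near it. The median was 0.14 against 0.07 over all genes, and 3 genes changed at least 2-fold: Chd7 and Cbx7 rose and Dnmt3a fell. Of all 12081 genes, 1108 rose and 1181 fell at least 2-fold. The KO and ACT libraries did not overlap in 44 of the 78, against 69.2% of all genes. Every KO library had received Cre and no ACT library had, so an effect of Cre itself cannot be told apart from the loss of Hk2.

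With lactate, 11 rose and 14 fell relative to KO, against 20% and 21% of all genes (41% in either direction). None of the 78 changed 2-fold, while 882 of all 12081 genes did. The median was -0.03, against -0.02 over all genes, and 36 of the 78 did not overlap between LAC and KO, against 52.2% of all genes. Between LAC and ACT, 24 were higher and 10 lower in LAC, where 27.8% and 21.7% of all genes were called (49.5% in either direction). Here the median was 0.08 against 0.03, and 42 of the 78 did not overlap, against 62.8%. These comparisons share libraries (ACT in 3 of them, KO in 2), so the values of a gene in them are not independent.

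**Figure D2:**
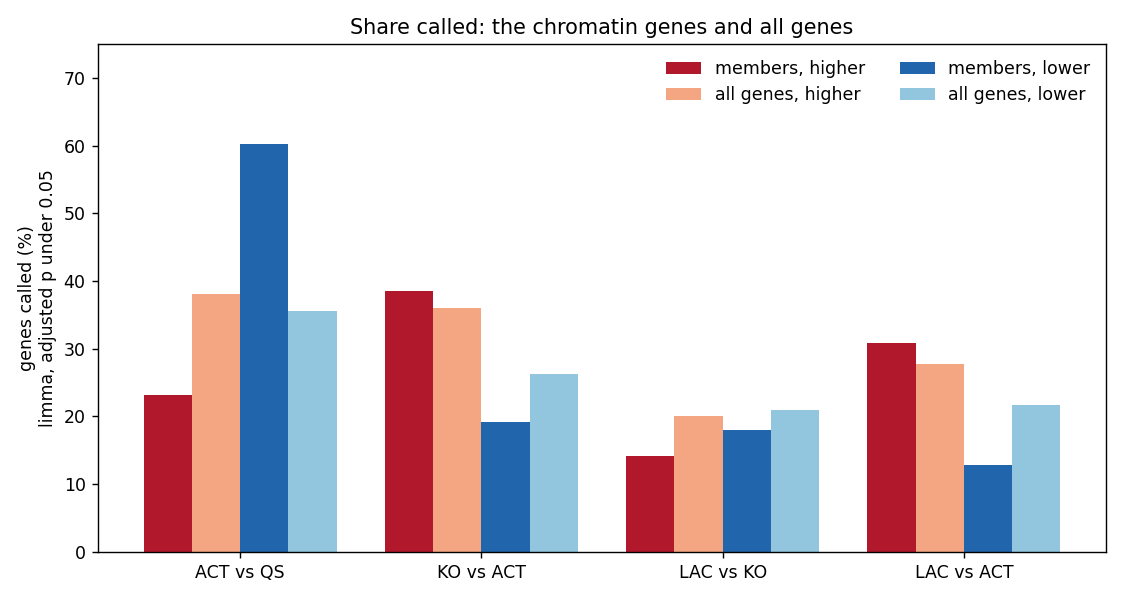
Share of genes (%) called higher or lower in each comparison, for the 78 chromatin genes (dark bars) and for all 12081 genes (light bars). The largest gap is the share lower in ACT vs QS, 60.3% of the 78 against 35.5%.

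**Figure D3:**
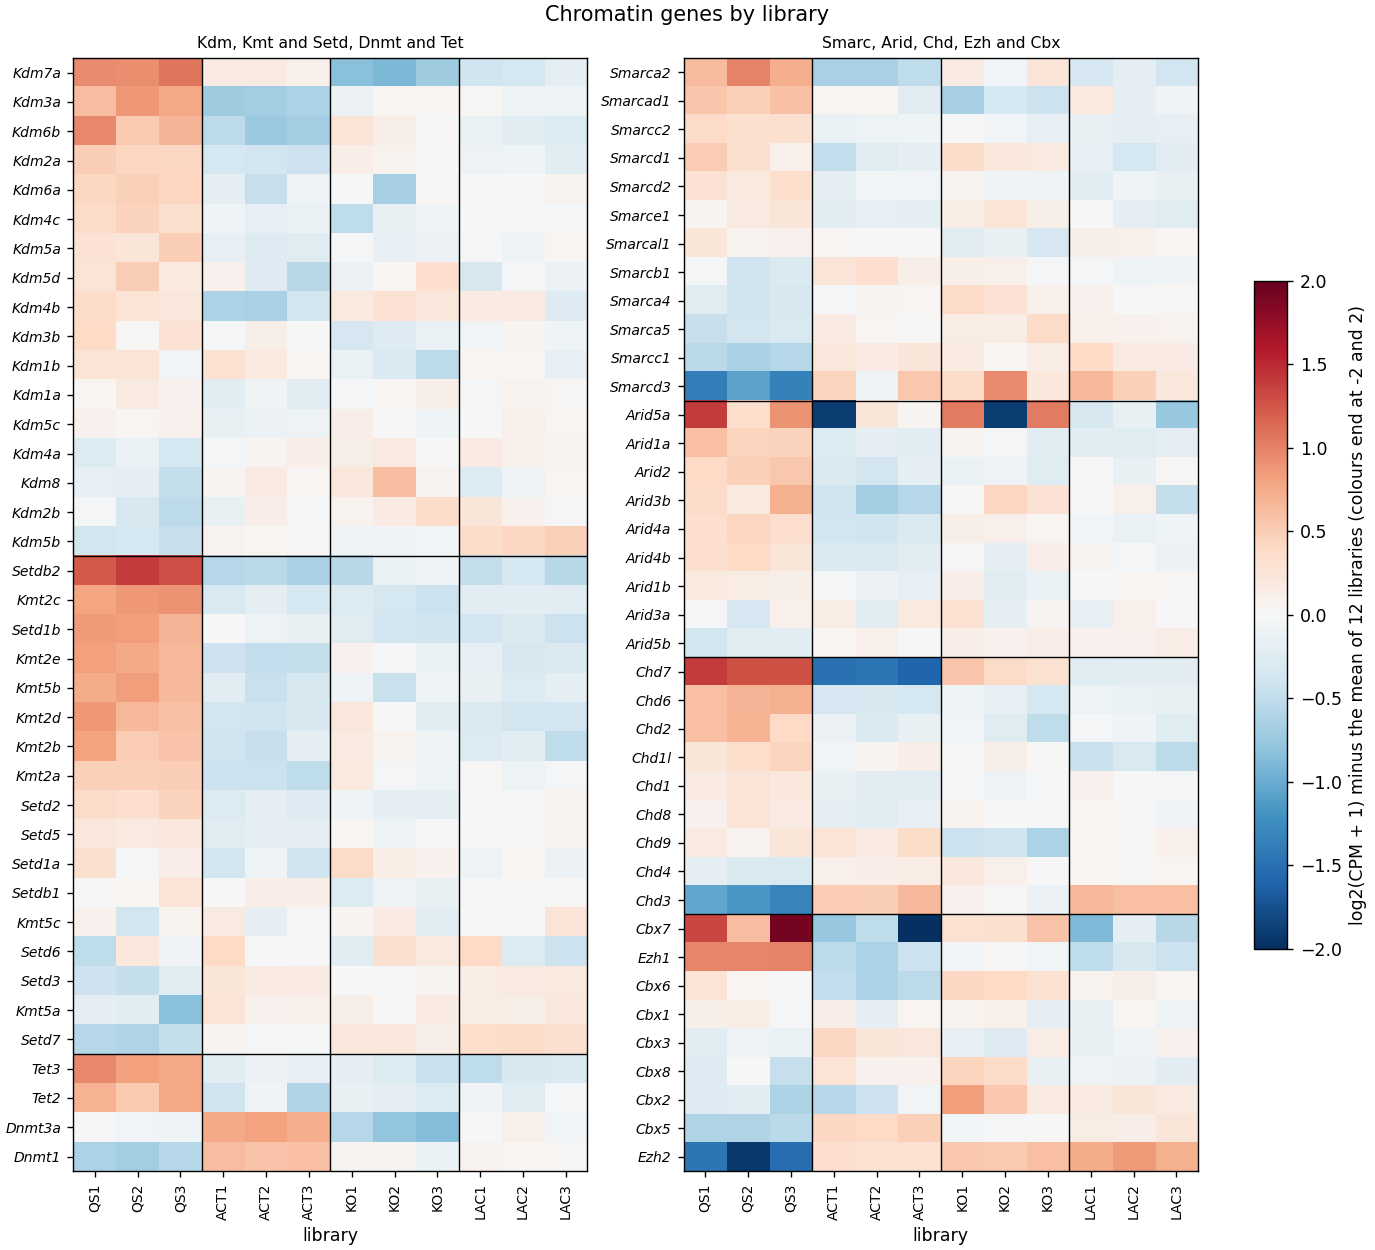
Log2(CPM + 1) of 77 of the 78 genes in each library, as the difference from its mean over the 12 libraries; families are separated by horizontal lines and groups by vertical lines. In 48 of the 78 genes the QS mean is the highest, while Ezh2, Chd3, Smarcd3, Dnmt1 and Cbx5 are lowest there.

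Among the histone methyltransferases, all 5 Kmt2 genes fell in culture. Of the 17 Kmt and Setd genes 11 (64.7%) fell and 3 rose in ACT vs QS, where 35.5% of all genes fell (median -0.63). Kmt2a, which encodes the lysine 4 methyltransferase MLL1 (mm10, chromosome 9, 44803355 to 44881296), was 220.0, 220.3 and 223 CPM in the QS libraries, 117, 118 and 111 in those of ACT, 183, 155 and 148 in those of KO and 161, 147 and 154 in those of LAC. QS was highest and ACT lowest with no overlap, and KO and LAC lay between them. ACT held 52.2% of the QS level (log2 fold change -0.93, SE 0.0645, limma adjusted p = 9.14e-09), KO rose to 140.1% of ACT (adjusted p = 1.80e-05), and LAC was 95.2% of KO (adjusted p = 0.446).

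Kmt2d and Kmt2c encode the related enzymes that methylate lysine 4 at enhancers. Kmt2d was 258, 224 and 211 CPM in the QS libraries, 109, 107 and 112 in those of ACT, 165, 141 and 120.3 in those of KO and 115, 109 and 108 in those of LAC. It fell in culture to 47.3% of QS (-1.07, adjusted p = 1.33e-07), rose to 130.0% of ACT in KO (0.36, adjusted p = 0.00404) and fell again with lactate (-0.35, adjusted p = 0.00922), to the range of ACT. Its KO libraries were widely spread. Kmt2c was 160.4, 169 and 172 CPM in the QS libraries, 74.1, 79.8 and 72 in those of ACT, 76.1, 72.3 and 68.4 in those of KO and 79.6, 78.3 and 78.7 in those of LAC. It fell to 45% of QS (-1.14, adjusted p = 9.62e-11), and its KO and ACT libraries overlapped (-0.06, adjusted p = 0.353). In log2(CPM + 1), Kmt2d minus Kmt2c was 0.53 ± 0.108 in ACT, 0.96 ± 0.152 in KO and 0.48 ± 0.0386 after lactate. Kmt2e, a relative that binds methylated lysine 4, had a course like that of Kmt2d, with log2 fold changes of -1.21, 0.44 and -0.23 in the same 3 comparisons, all called. Kmt2b, whose enzyme acts at promoters, did so too (-0.98, 0.40 and -0.39).

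Setd1a and Setd1b encode the catalytic subunits of the complexes that place most lysine 4 trimethylation, and they moved apart after Cre. Setd1a was 55.7 ± 7.13 CPM in ACT and 78.8 ± 8.76 in KO (0.50, adjusted p = 0.00101), so it rose, whereas Setd1b fell from 42.3 ± 2.32 to 35.3 ± 2.01 CPM (-0.25, adjusted p = 0.00724). Setdb2, a gene of the lysine 9 methyltransferase family, had the largest fall of the group in culture. It was 44.3, 50.4 and 46.5 CPM in the QS libraries, 12.2, 12.3 and 11.5 in those of ACT, 12.3, 16.7 and 17.4 in those of KO and 13, 14.2 and 12.2 in those of LAC, with the QS libraries far above all others (-1.89, SE 0.122, adjusted p = 4.08e-09).

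A few methyltransferase genes went up in culture. Setd7, whose product adds a single methyl group to lysine 4 and to non-histone proteins, was looked at after its values were seen. It was 111, 109 and 119 CPM in the QS libraries, 172, 163 and 163 in those of ACT, 192, 193 and 180.2 in those of KO and 212, 216 and 207 in those of LAC. No pair of groups overlapped: it rose in ACT vs QS (0.55, adjusted p = 5.36e-08), in KO vs ACT (0.18, adjusted p = 0.00312) and in LAC vs KO (0.17, adjusted p = 0.00856). Of the 78 genes it was the only one called higher in all 3. Setd3, which encodes the enzyme that methylates a histidine of actin, rose from 69.3 ± 7.09 CPM in QS to 103 ± 3.0 in ACT (0.57, adjusted p = 1.29e-06) and fell to 89.6 ± 2.78 in KO (-0.20, adjusted p = 0.0120). In LAC it was 101 ± 1.81 CPM, a difference from KO (0.17, adjusted p = 0.0417) that lost its call without any 1 of the KO, LAC or ACT libraries other than KO replicate 3 (adjusted p = 0.0510 to 0.116).

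Of the 17 Kdm genes 12 (70.6%) fell and 2 rose in ACT vs QS, against 35.5% and 38% of all genes (median -0.51). Kdm6b, which encodes the inducible lysine 27 demethylase JMJD3 (mm10, chromosome 11, 69398508 to 69413675), was 96.4, 71.1 and 78.9 CPM in the QS libraries, 33.8, 29 and 30.2 in those of ACT, 59.2, 53.2 and 49 in those of KO and 44.3, 42.1 and 40.2 in those of LAC. Each step between ACT, LAC, KO and QS, from low to high, was without overlap. ACT held 37.7% of QS (log2 fold change -1.37, SE 0.103, limma adjusted p = 2.41e-08) and KO 174% of ACT (0.78, adjusted p = 1.60e-05). With lactate it fell to 78.5% of KO (-0.34, adjusted p = 0.0181), a call lost without KO replicate 1 (adjusted p = 0.0799) or LAC replicate 3 (adjusted p = 0.0651). Kdm6a, its X-linked relative UTX, fell in culture (-0.69, adjusted p = 7.47e-04) and was 36.2, 23 and 37.6 CPM in the KO libraries against 32.2, 26.7 and 34.5 in ACT (0.03, adjusted p = 0.882), with KO replicate 2 the lowest.

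Kdm3a and Kdm4b, which encode lysine 9 demethylases, fell in culture and rose again after Cre. The related genes Kdm3b, Kdm4a and Kdm4c, looked at after their values were seen, did not rise in KO vs ACT (-0.28, called lower, and 0.04 and -0.12, not called). Kdm3a was 128, 152 and 142 CPM in the QS libraries, 50.3, 50.6 and 52.9 in those of ACT, 76, 85.3 and 85.3 in those of KO and 84.4, 77.4 and 77.7 in those of LAC. It fell to 36.5% of QS in ACT (-1.43, adjusted p = 1.09e-10) and rose to 160.3% of ACT in KO (0.67, adjusted p = 8.75e-07), while its LAC and KO libraries overlapped (-0.04, adjusted p = 0.664). Kdm4b, whose product also acts on lysine 36, fell and rose by similar amounts (-0.84 and 0.78), from 29.3 ± 1.48 CPM in QS to 16 ± 1.85 in ACT and 28.1 ± 0.983 in KO.

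Kdm7a and Kdm5b left this course. Kdm7a, which encodes a demethylase of lysines 9 and 27 (mm10, chromosome 6, 39136623 to 39206789), was 142, 140.4 and 155 CPM in the QS libraries, 82.5, 83.6 and 78.5 in those of ACT, 40.6, 38.8 and 44.7 in those of KO and 55.7, 57 and 63.7 in those of LAC. No group overlapped another, and KO was the lowest. It fell in ACT vs QS (-0.83, adjusted p = 5.18e-08) and again in KO vs ACT (log2 fold change -0.96, SE 0.0670, limma adjusted p = 1.61e-08), and rose with lactate (0.50, adjusted p = 4.27e-05), to 72.1% of ACT. The macrophage sums had the same order of ACT, LAC and KO, but QS, highest for Kdm7a, was second there. Kdm5b, whose product removes lysine 4 methylation, was 67.6, 68.6 and 63.3 CPM in the QS libraries, 92.1, 90 and 89.5 in those of ACT, 83.1, 83.1 and 84.9 in those of KO and 114, 117 and 122 in those of LAC. It rose in culture (0.44, adjusted p = 7.74e-07) and with lactate (0.49, adjusted p = 1.27e-06), so that LAC was the highest group, 130.0% of ACT (0.37, adjusted p = 1.02e-05). Its difference between KO and ACT was small (-0.11, adjusted p = 0.0468) and lost its call without any 1 of the ACT, KO or LAC libraries (adjusted p = 0.0505 to 0.131).

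Kdm5d lies on the Y chromosome (mm10, Y, 897788 to 956786) and its relative Kdm5c on the X chromosome. Kdm5d was chosen for its position and was above 3 reads in all 12 libraries, at 8.99 to 19.5 CPM. It fell in ACT vs QS (-0.55, adjusted p = 0.00893) and was not called in the other 3 comparisons. Kdm5c also fell there, by 0.19 on the log2 scale (adjusted p = 0.00534), a call lost with quantile normalization (adjusted p = 0.539) and with equal library totals (adjusted p = 0.0674).

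**Figure D4:**
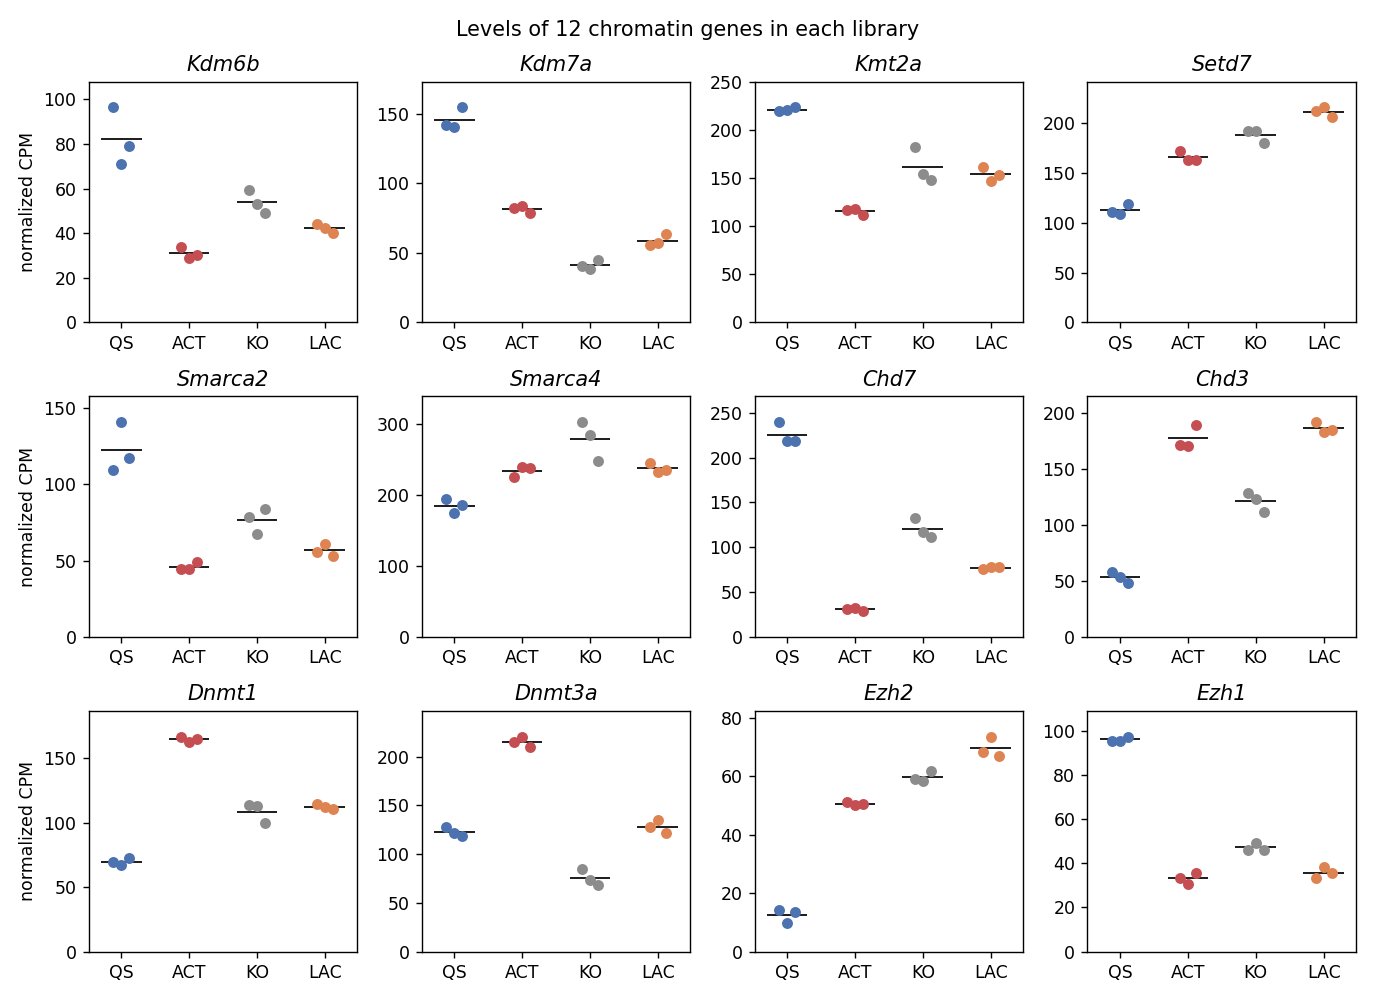
Normalized CPM of 12 chromatin genes in each library (points) with group means (lines); each panel has its own axis from 0. Chd7, Smarca2 and Kdm6b run from QS over KO and LAC down to ACT, Dnmt3a is lowest in KO, and Ezh2 and Setd7 are highest in LAC.

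The catalytic subunits of Polycomb repressive complex 2 went in opposite directions in culture. Ezh2, the subunit of dividing cells, was 14.2, 9.93 and 13.5 CPM in the QS libraries, 51.1, 50.1 and 50.4 in those of ACT, 59.1, 58.4 and 61.7 in those of KO and 68.5, 73.6 and 67 in those of LAC. ACT was 402% of QS (log2 fold change 1.94, SE 0.101, limma adjusted p = 3.45e-10) with no overlap. Ezh1, its relative in resting cells, was 95.5, 95.4 and 97.2 CPM in the QS libraries, 33.2, 30.8 and 35.5 in those of ACT, 46.2, 49 and 46.1 in those of KO and 33.5, 38.2 and 35.4 in those of LAC, and ACT held 34.5% of QS (log2 fold change -1.51, SE 0.0664, limma adjusted p = 5.55e-11). The difference in log2(CPM + 1) between Ezh2 and Ezh1 went from -2.85 ± 0.252 (SD, n = 3) in QS to 0.60 ± 0.0955 in ACT; the size of such a difference depends on transcript length, its change between groups far less. After Cre, Ezh1 rose to 142% of ACT (0.50, adjusted p = 1.65e-05) and with lactate fell (-0.39, adjusted p = 3.28e-04). Ezh2 was not called in either step (0.24, adjusted p = 0.0552 and 0.22, adjusted p = 0.10), although neither overlapped, and it was higher in LAC than in ACT (0.46, adjusted p = 0.00177). Proliferation markers had lower sums in KO and LAC than in ACT. Of the 22, 16 fell and 2 rose in KO vs ACT, and 15 fell and 1 rose in LAC vs ACT. Their link to Ezh2 was not tested.

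The start sites of these 2 genes are shown because their levels crossed. The windows run from 250 bases before to 50 after the start (RefSeq, GRCm38.p6). Capitals mark matches on either strand to an E2F site (TTTCCCGC or TTTGGCGC), to a CHR element (TTTGAA or TTCGAA) or to CCAAT, all known from promoters of dividing cells. Ezh2 is at chr6:47594981-47595280, minus strand, and Ezh1 at chr11:101226414-101226713, minus strand.
Ezh2: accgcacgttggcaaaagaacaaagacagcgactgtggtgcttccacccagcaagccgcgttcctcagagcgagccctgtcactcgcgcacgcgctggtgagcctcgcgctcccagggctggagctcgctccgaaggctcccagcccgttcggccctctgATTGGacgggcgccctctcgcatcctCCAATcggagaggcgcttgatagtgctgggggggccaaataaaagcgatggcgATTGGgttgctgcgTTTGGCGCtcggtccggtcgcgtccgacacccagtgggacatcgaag
Ezh1: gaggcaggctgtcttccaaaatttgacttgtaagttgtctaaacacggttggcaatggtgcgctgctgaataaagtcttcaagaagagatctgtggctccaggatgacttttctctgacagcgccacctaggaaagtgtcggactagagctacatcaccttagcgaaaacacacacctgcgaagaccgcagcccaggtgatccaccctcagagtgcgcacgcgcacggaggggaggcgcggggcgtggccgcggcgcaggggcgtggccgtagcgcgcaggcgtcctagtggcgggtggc
The Ezh2 window holds 1 E2F match and 3 CCAAT matches, while these letters are not in the Ezh1 window. A window was found for 60 of the 78 genes, and an E2F match for 6 of the 60 (10.0%): Ezh2, Dnmt1, Cbx3, Arid1a, Smarcd1 and Kmt5c. Of the listed genes with a window 3.4% had one, and of all RefSeq windows taken by gene 1.8%. Ezh2, Dnmt1 and Cbx3 rose in culture, Arid1a and Smarcd1 fell, and Kmt5c was not called. CCAAT was in 41.7% of the members with a window and 43.0% of the listed genes, and a CHR match in 15% and 16.3%. A match is a description of letters, not of a bound site.

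The Cbx genes encode chromodomain readers of 2 kinds, those of heterochromatin (Cbx1, Cbx3 and Cbx5) and those of Polycomb repressive complex 1 (such as Cbx2, Cbx6 and Cbx7). Cbx5, the gene of HP1 alpha, was 92.3, 92.9 and 97.3 CPM in the QS libraries, 189, 187 and 196 in those of ACT, 135, 139 and 140.1 in those of KO and 157, 155 and 167 in those of LAC. It rose in culture to 203% of QS (1.01, SE 0.0415, adjusted p = 2.49e-11), fell in KO (-0.46, adjusted p = 2.60e-07) and rose in part with lactate (0.21, adjusted p = 0.00123), to 83.6% of ACT. Cbx3 rose and fell in the first 2 steps (0.45 and -0.38), and Cbx1 was not called in any comparison.

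Of the Polycomb readers, Cbx7, a gene known to hold proliferation-blocking loci silent, was lowest in ACT. It was 10.3, 5.82 and 15.8 CPM in the QS libraries, 1.65, 2.15 and 0 in those of ACT, 4.53, 4.56 and 5.61 in those of KO and 1.43, 2.89 and 2.03 in those of LAC, so that ACT replicate 3 was listed at 0 and the QS libraries were widely spread. It fell in culture (log2 fold change -2.42, SE 0.398, limma adjusted p = 7.88e-05) and rose in KO (1.53, adjusted p = 0.00408). Cbx6 was 84.4, 72.1 and 70.8 CPM in the QS libraries, 49.2, 44.6 and 48.2 in those of ACT, 93.3, 92.9 and 86.6 in those of KO and 73.8, 76.2 and 71.9 in those of LAC. It fell in culture (-0.66, adjusted p = 6.91e-07), rose in KO to 192% of ACT (0.93, adjusted p = 3.00e-08), above each QS library, and fell with lactate (-0.29, adjusted p = 0.00353). Cbx2 was at 3.76 to 6.05 CPM in the QS and ACT libraries and rose to 12.1, 9.69 and 7.34 CPM in KO (0.87, adjusted p = 0.00138).

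Both listed DNA methyltransferase genes rose in culture and fell after Cre. Dnmt1, whose enzyme copies methylation onto new strands, was 69.9, 66.9 and 72.9 CPM in the QS libraries, 167, 163 and 165 in those of ACT, 114, 113 and 99.5 in those of KO and 115, 113 and 110.4 in those of LAC. It rose to 236% of QS (log2 fold change 1.23, SE 0.0533, limma adjusted p = 4.75e-11) and fell to 65.9% of ACT in KO (-0.60, adjusted p = 2.40e-07). The LAC libraries overlapped those of KO (0.05, adjusted p = 0.473) and lay below ACT (-0.55, adjusted p = 1.01e-06). The proliferation sums had this course too, high in ACT and lower by like amounts in KO and LAC.

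Dnmt3a, whose enzyme sets new methylation, had the largest fall after Cre of the 78 genes. It was 127, 122 and 119 CPM in the QS libraries, 215, 221 and 209.9 in those of ACT, 84.9, 73 and 68.7 in those of KO and 127, 135 and 122 in those of LAC. ACT was the highest group and KO the lowest, below QS, and QS and LAC overlapped. It rose in culture to 175% of QS (0.80, adjusted p = 7.01e-08), fell to 35.1% of ACT in KO (log2 fold change -1.50, SE 0.0668, limma adjusted p = 1.10e-10) and rose with lactate to 169.9% of KO (0.76, adjusted p = 6.34e-07), which is 59.7% of ACT. The macrophage sums were likewise highest in ACT, lower in LAC and lowest in KO, with a fall from ACT to KO far steeper than that of Dnmt3a. The difference in log2(CPM + 1) between Dnmt1 and Dnmt3a was -0.80 ± 0.0911 in the QS libraries, -0.38 ± 0.0487 in ACT, 0.52 ± 0.104 in KO and -0.19 ± 0.0686 after lactate.

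The start sites of the 2 enzymes are printed because Dnmt3a was called higher in LAC than in KO and Dnmt1 was not. Both were lower in LAC than in ACT. Each gene has 3 annotated windows, of which the one with the most CG pairs is shown, with the same capitals. Dnmt1 is at chr9:20952574-20952873, minus strand, and Dnmt3a at chr12:3806910-3807209, plus strand.
Dnmt1: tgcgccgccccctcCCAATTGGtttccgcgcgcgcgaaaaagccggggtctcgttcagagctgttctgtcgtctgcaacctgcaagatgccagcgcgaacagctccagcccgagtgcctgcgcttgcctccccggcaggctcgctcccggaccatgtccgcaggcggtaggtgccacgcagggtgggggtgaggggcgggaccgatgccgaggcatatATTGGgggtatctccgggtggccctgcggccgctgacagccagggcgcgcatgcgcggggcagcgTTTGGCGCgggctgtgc
Dnmt3a: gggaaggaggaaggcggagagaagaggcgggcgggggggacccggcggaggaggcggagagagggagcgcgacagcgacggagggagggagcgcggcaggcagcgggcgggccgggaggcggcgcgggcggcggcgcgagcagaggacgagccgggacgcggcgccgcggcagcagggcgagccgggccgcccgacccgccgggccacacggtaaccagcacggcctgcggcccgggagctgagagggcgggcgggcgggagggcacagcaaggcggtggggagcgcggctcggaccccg
The Dnmt1 window holds 1 E2F match and 3 CCAAT matches, of which 2 overlap as CCAATTGG, and 33 CG pairs. Over the 3 Dnmt1 windows, the highest counts in a window were 5 CCAAT matches and 1 CHR match. That CHR match lies outside the window shown. The Dnmt3a window holds none of these motifs and 47 CG pairs. The median over the 60 members with a window was 28.5 CG pairs, against 22 over listed genes.

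The Tet genes, whose products act against the methyltransferases, fell in culture. Tet3 was 173, 156 and 152 CPM in the QS libraries, 74.7, 81 and 78.1 in those of ACT, 76.9, 72.5 and 64.4 in those of KO and 61.8, 70.6 and 70.9 in those of LAC and Tet2 was 49.4 ± 4.52, 23.9 ± 4.64, 26.6 ± 1.27 and 28.3 ± 2.24 CPM in the same order. Both fell in culture by about the same amount (-1.03, adjusted p = 1.64e-08 and -1.03, adjusted p = 2.39e-06), and neither was called in KO vs ACT (-0.13 and 0.16) or LAC vs KO (-0.07 and 0.09).

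The Smarc genes encode subunits of the SWI/SNF (BAF) remodelling complexes and related ATPases. Of 12, 5 (41.7%) rose and 6 (50%) fell in culture, against 38% and 35.5% of all genes, and in 3 pairs of subunits that can replace each other in the complex 1 gene rose and the other fell. Of the alternative ATPases, Smarca2, the gene of BRM, was 109, 141 and 117 CPM in the QS libraries, 44.4, 44.6 and 49.2 in those of ACT, 78.7, 67.3 and 83.7 in those of KO and 55.4, 61.1 and 53.3 in those of LAC, and Smarca4, the gene of BRG1, was 195, 176 and 186 CPM in the QS libraries, 226, 240.3 and 238 in those of ACT, 303, 285 and 249 in those of KO and 246, 233 and 236 in those of LAC. Smarca2 fell to 37.6% of QS (log2 fold change -1.38, SE 0.0971, limma adjusted p = 1.06e-08), and Smarca4 rose to 127% of QS (0.34, adjusted p = 2.15e-04). Both rose in KO (0.72, adjusted p = 1.85e-05 and 0.24, adjusted p = 0.00382) and fell with lactate (-0.43, adjusted p = 0.00312 and -0.22, adjusted p = 0.0117). The last call of Smarca4 was lost without KO replicate 1 (adjusted p = 0.0561). The difference Smarca4 minus Smarca2 was 0.60 ± 0.260 in the QS libraries, 2.33 ± 0.0752 in ACT, 1.85 ± 0.262 in KO and 2.06 ± 0.124 after lactate, with no overlap of QS with the others.

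The scaffold subunits showed the same exchange. Smarcc1 was 86.3 ± 3.58 CPM in QS and 151 ± 4.54 in ACT (0.80, adjusted p = 3.67e-08), while Smarcc2 went from 184 ± 4.51 to 134 ± 2.11 (-0.45, adjusted p = 4.55e-07). Neither was called in KO vs ACT or LAC vs KO. Smarcd1 and Smarcd3 encode alternative subunits that bind transcription factors. Smarcd3, which is known from heart and muscle, rose in culture from 2.03, 2.76 and 2.09 CPM to 9.79, 6.43 and 10.5 (log2 fold change 1.57, SE 0.221, limma adjusted p = 1.82e-05) and stayed at 9.18, 14.2 and 8.14 in KO and 11.6, 10 and 8.18 in LAC, with neither step called. Smarcd1 was 38.4, 33.3 and 28.6 CPM in the QS libraries, 18.6, 22.4 and 23 in those of ACT, 34.6, 31 and 30.3 in those of KO and 23.6, 20.6 and 22.7 in those of LAC. It fell in culture (-0.62), rose in KO (0.56, adjusted p = 6.47e-04), to the range of QS, and fell with lactate (-0.50, adjusted p = 0.00298), to that of ACT. Smarce1, another SWI/SNF subunit gene, made the same 3 moves (-0.34, 0.36 and -0.32, all called).

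Smarcad1, an ATPase outside SWI/SNF that acts in replication and repair, moved against these subunits after Cre. It was 37.6, 35.7 and 38.6 CPM in the QS libraries, 26.1, 26 and 21.8 in those of ACT, 15.5, 19.6 and 18.5 in those of KO and 29, 22.1 and 24 in those of LAC. It fell in culture (-0.58) and further in KO (-0.45, adjusted p = 0.00395), and rose with lactate (0.46, adjusted p = 0.00544) to 102% of ACT. Smarcal1, which anneals DNA at stalled forks, made the last 2 of these moves (-0.25, adjusted p = 0.0290 and 0.33, adjusted p = 0.0113).

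Arid genes encode proteins with an AT-rich interaction domain. Of the 9, 6 (66.7%) fell and 1 rose in culture, where 35.5% of all genes fell. In KO 4 (44.4%) rose, near the 36% of all genes, and none fell. Arid1a, the defining subunit of canonical BAF, was 236, 213 and 215 CPM in the QS libraries, 129, 136 and 132 in those of ACT, 161, 153 and 133 in those of KO and 134, 132 and 136 in those of LAC. It fell to 59.9% of QS (log2 fold change -0.73, SE 0.0614, limma adjusted p = 7.61e-08). Arid1b, which takes its place in the same complex, was 83.2% of QS in ACT (-0.26, adjusted p = 0.00548, and 0.141 with quantile normalization). Arid2, of the PBAF complex, fell like Arid1a (-0.75, adjusted p = 1.40e-07). In KO, Arid1a and ACT overlapped and its call (0.16, adjusted p = 0.0330) was lost without ACT replicate 1 or 3 or KO replicate 1 or 2 (adjusted p = 0.0712 to 0.154). Arid4a, a partner of the Sin3 deacetylase complex, was 114, 122 and 115 CPM in the QS libraries, 68.7, 68.2 and 74 in those of ACT, 98, 97.4 and 92.9 in those of KO and 86.5, 81.9 and 85.5 in those of LAC. It fell (-0.72, adjusted p = 7.33e-09), rose in KO (0.45, adjusted p = 2.34e-06) and fell in part with lactate (-0.18, adjusted p = 0.00949).

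Chd7, a remodelling ATPase gene, had the largest change of the 78 genes in ACT vs QS, KO vs ACT and LAC vs ACT, but not in LAC vs KO, where Cbx7 (-0.94, not called) and Dnmt3a (0.76) changed more. Chd7, which acts at enhancers in development (mm10, chromosome 4, 8690406 to 8867659), was 239.7, 219 and 219 CPM in the QS libraries, 31.3, 32.4 and 29.3 in those of ACT, 133, 117 and 112 in those of KO and 76, 77.8 and 78 in those of LAC. No 2 groups overlapped. ACT held 13.7% of QS (log2 fold change -2.82, SE 0.0646, limma adjusted p = 3.91e-14), KO was 389% of ACT (1.92, SE 0.0646, adjusted p = 5.06e-12) and LAC 64% of KO (-0.63, adjusted p = 2.97e-06). The order QS, KO, LAC, ACT was also that of the endothelial marker sums, of which 18 of 19 genes rose and 1 fell in KO vs ACT; what endothelial RNA added to Chd7 was not tested. The group means had this order in 23 of the 78 genes (29.5%), counted after their values were seen and among them Kdm6b, Smarca2, Ezh1 and Kmt2e, and in 13.8% of all 12081 genes.

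Chd3 and Chd4 encode alternative ATPases of the NuRD complex, which joins remodelling to deacetylation. Chd3 was 58.3, 53.2 and 48 CPM in the QS libraries, 172, 171 and 189.5 in those of ACT, 129, 123 and 111 in those of KO and 192, 183 and 185 in those of LAC. It rose to 334% of QS in ACT (log2 fold change 1.72, SE 0.0705, limma adjusted p = 2.42e-11), fell in KO (-0.55, adjusted p = 1.13e-05) and rose with lactate (0.62, adjusted p = 8.43e-06), where it overlapped ACT (adjusted p = 0.420, LAC vs ACT). Chd4 rose in culture (0.39, adjusted p = 4.40e-06) and was not called in the other comparisons (-0.02 in KO vs ACT and -0.08 in LAC vs KO). Chd3 minus Chd4 in log2(CPM + 1) was -2.58 ± 0.0833 in the QS libraries, -1.25 ± 0.0765 in ACT, -1.77 ± 0.0210 in KO and -1.07 ± 0.0317 after lactate.

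Chd9 was 68, 63.1 and 71.1 CPM in the QS libraries, 72.4, 67.9 and 77.3 in those of ACT, 44.1, 45.4 and 38.4 in those of KO and 61.7, 61.1 and 64.7 in those of LAC. QS and ACT overlapped, KO was the lowest (-0.76, SE 0.0725, adjusted p = 5.58e-07) and LAC rose above KO (0.55, adjusted p = 3.84e-05). Chd6 and Chd2 fell in culture (-1.0, adjusted p = 2.93e-09 and -0.75, adjusted p = 1.91e-05) and were not called after Cre (0.13 and -0.08). Chd1l, a remodeller recruited to DNA breaks, was at its lowest with lactate: 10.8, 11.9 and 10.2 CPM against 14.8, 16.3 and 15.1 in KO (-0.46, adjusted p = 0.00304).

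The balance of related genes was measured in 14 pairs fixed by name, as the difference in log2(CPM + 1) in each library. Over 4 comparisons this gave 56 tests, and the groups did not overlap in 37 of them. For single genes, 76.3% of all 12081 did not overlap in ACT vs QS and 69.2% in KO vs ACT. The shares were 52.2% in LAC vs KO and 62.8% in LAC vs ACT, so such a count is common in these data. The share over other pairs of genes was not counted. A two-sided exact permutation test gave p = 0.10 at best, the smallest that 3 against 3 libraries allow, and 0.151 after adjustment over the 56. Thus no pair passed on its own. The largest changes in ACT vs QS were those of Ezh2 minus Ezh1 (3.45), Cbx5 minus Cbx7 (3.43), Cbx2 minus Cbx7 (2.44) and Smarcd1 minus Smarcd3 (-2.19). In KO vs ACT they were those of Cbx5 minus Cbx7 (-2.0), Dnmt1 minus Dnmt3a (0.90) and Kdm6b minus Kdm6a (0.75).

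**Figure D5:**
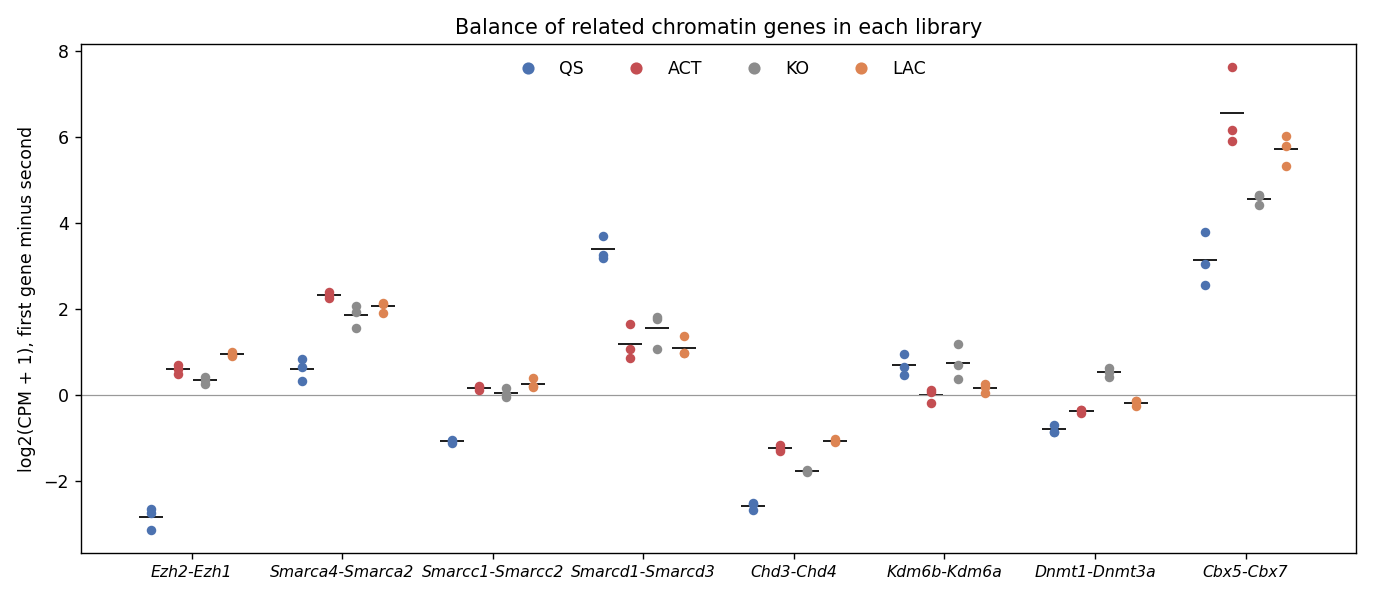
Difference in log2(CPM + 1) between 2 related genes in each library (points) with group means (lines), for 8 of the 14 pairs. QS libraries stand apart from the cultured ones for every pair shown except Kdm6b-Kdm6a, where QS and KO overlap.

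Partner subunits from lists written for this purpose were read beside the members; in culture their counts stand against 38% higher and 35.5% lower of all genes, and in LAC vs KO against 20% and 21%. Of 12 NuRD partners, 8 rose and none fell in KO vs ACT, and 8 fell and none rose in LAC vs KO (medians 0.21 and -0.20). Over all genes 36% rose and 21% fell in these comparisons. The deacetylase gene Hdac1 went from 85.7 ± 3.97 CPM in ACT to 131 ± 8.88 in KO (0.61) and 115 ± 2.38 in LAC, and the scaffold gene Gatad2a from 92.1 ± 4.47 to 139 ± 6.5 (0.59) and 117 ± 3.43 CPM. Chd3, the alternative ATPase of the complex, moved the other way in both comparisons.

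Of 11 partners of Polycomb repressive complex 2, 2 rose and 4 fell in ACT vs QS (median -0.08), with the histone-binding Rbbp7 at 0.89 and Phf1, a reader subunit, at -1.72. Of 16 partners of complex 1, 7 fell and 2 rose (median -0.15). Rybp, a subunit of variant complexes, fell from 133 ± 1.52 to 55 ± 2.06 CPM, and Phc3, a polyhomeotic subunit, from 146 ± 4.57 to 74.6 ± 2.71. In KO vs ACT 7 of the 16 (43.8%) rose, near the 36% of all genes, and 1 fell; the largest rises were those of Phc2 (0.86) and Pcgf2 (0.75).

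Among 15 other genes of DNA methylation, Uhrf1, which brings Dnmt1 to replicating DNA, rose in culture with it, from 7.94 ± 1.63 to 62.8 ± 3.01 CPM (2.85), and was lower in LAC than in ACT (-0.76). Gadd45a, linked to demethylation and stress, fell in culture (-1.85) and rose in KO (1.66). Idh1 encodes an enzyme that makes 2-oxoglutarate, which Tet and most Kdm enzymes consume. It fell from 259.8 ± 11.4 CPM in ACT to 75 ± 4.36 in KO (-1.78) and rose to 113 ± 7.78 in LAC (0.59). In all, 9 of the 15 (60%) rose and 4 (26.7%) fell in KO vs ACT, against 36% and 26.3% of all genes.

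Among 17 other remodelling genes 11 fell and 4 rose in culture (median -0.35). Hells, a replication-linked remodeller (2.81), and Rad54l, of homologous recombination (2.24), rose most. Daxx, a histone H3.3 chaperone, fell from 94 ± 4.53 to 24.3 ± 1.49 CPM (-1.91). Of 14 other SWI/SNF subunits 3 rose and 4 fell, with Bicral (-0.96) and Actb (0.94), the gene of the actin that the complex shares with the cytoskeleton, the largest. Of 11 partners of the lysine 4 methyltransferases 5 fell and 2 rose in culture, and 6 fell and 2 rose in LAC vs KO. Their median in culture was -0.01, against -0.63 for the Kmt and Setd enzymes. Among 16 other lysine methyltransferase genes 5 fell and 4 rose, and Mecom, a zinc-finger gene also expressed in endothelium, changed most: 40.2 ± 7.15 CPM in QS, 0.527 ± 0.841 in ACT, 11.3 ± 2.04 in KO and 8.33 ± 0.562 after lactate. On a list of 8 other genes of demethylase families 4 fell and 1 rose in culture. The lysine 9 demethylase gene Phf2 was among those that fell (-1.04). Jarid2, which also fell (-0.43), is counted among the partners of Polycomb repressive complex 2 as well. Rbbp4 and Rbbp7 are counted both there and among the NuRD partners.

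The largest differences left between LAC and ACT were Chd7 (1.29, adjusted p = 8.74e-10), Dnmt3a (-0.74, adjusted p = 4.61e-07), Cbx6 (0.63, adjusted p = 2.78e-06) and Kdm3a (0.63, adjusted p = 2.64e-06). LAC thus held 249%, 59.7%, 156% and 156% of the ACT level of these genes. In KO vs ACT and then LAC vs KO, 13 members were called higher then lower, and 9 lower then higher. Of these, 10 were not called in LAC vs ACT, with log2 differences of LAC from ACT of -0.03 to 0.10. They were Chd3, Kmt2b, Kmt2d, Smarca4, Smarcd1, Smarce1, Smarcal1, Ezh1, Smarcad1 and Setd3. Chd7, Dnmt3a, Cbx6, Cbx5 and Kdm7a were among the others and were still called in LAC vs ACT. How many of all genes took the course of the 10 was not counted. Both KO vs ACT and LAC vs KO use the KO libraries, so opposite calls in them are not independent. A call that misses its threshold does not show that the levels were equal. The 8 genes called in none of the 4 comparisons were Arid3a, Cbx1, Cbx8, Kdm2b, Kdm8, Kmt5c, Setd6 and Arid5a; the last was listed near 0 in ACT replicate 1 and KO replicate 2 and at 8.82, 3.81 and 5.96 CPM in QS.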

How the data were processed

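RNA of 12 libraries was sequenced after preparation with a stranded mRNA kit, per the labels' protocols. The signal values deposited by the authors are normalized CPM, per the name of the deposited table; column totals of 959233 to 1047042 show a further factor per library. FastQC 0.11.8, cutadapt 1.18, kallisto 0.44.0 and edgeR 3.8 with mm10 are named in the submitters' processing notes without role or order. All genes have at least 1 CPM in at least 3 libraries. Values are relative to total RNA measured, and cannot show a change in RNA per cell. Reads were estimated from the smallest repeated step of each column; only 19.1% to 25.7% of values were whole reads (within 0.01), so no count test was run.

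Group and replicate came from the sample titles. Main test: limma 3.58.1 (R 4.3.3) on log2(CPM + 1), 4 group means over all 12 libraries, trended moderation, Benjamini-Hochberg over 12081 genes, called at adjusted p under 0.05; the script was tested on simulated data. The pseudocount understates fold changes of low genes. Levels are mean ± SD, n = 3. Genes were named by a rule: up to 4 called members per family and comparison with the largest change and a mean of at least 5 CPM, plus genes fixed by name, and up to 2 per partner list; further genes are said to be chosen after their values. 1 member is counted but not reported here by itself. The members and lists were chosen with earlier results of these data known. No 2 libraries were alike within counting noise (chi-square per gene 2.33 to 4.57 within groups), and all were kept separate. Cbx3, Dnmt3a, Smarca5 and Smarce1 have annotated pseudogene copies (GENCODE M21) that could share reads, so their values are uncertain to that extent. Alternatives were other pseudocounts, a higher filter, other scalings, a replicate block, fewer groups, other moderation and thresholds, and leaving out each library.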

Additional observations from a re-analysis of the deposited data

How the results depend on the processing

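With at least a 1.5-fold change required, 7 members were called higher and 31 lower in ACT vs QS, and 9 and 4 in KO vs ACT. In LAC vs KO they were 2 and 1, and in LAC vs ACT 3 and 1. Most calls outside ACT vs QS are below this size. The share of all genes that reach it was not counted. The other alternatives moved none of these 8 counts by more than 1.5 times. Leaving out 1 library gave 18 to 19 higher and 45 to 47 lower in ACT vs QS, 27 to 31 and 12 to 15 in KO vs ACT, 9 to 13 and 13 to 21 in LAC vs KO, and 20 to 25 and 8 to 11 in LAC vs ACT. With the replicate number as a block the counts were 18 and 46, 30 and 14, 12 and 14, and 24 and 9. The labels do not say whether the numbers pair libraries. None of 18 same-number pairs had a correlation of deviations over 0.1 (-0.0422 to 0.0858), and other pairs had -0.0771 to 0.0531. Only 1 library of 12 correlated best with its own number. Correlations this weak do not settle whether the libraries are paired. Of 120 named values called, 103 kept direction and call in every alternative that tested them, 17 lost the call in at least 1 and none reversed; of the other 51, 20 were called in at least 1. Genes near 3 reads, such as Cbx7 in ACT, are limited by depth.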

Other observations

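The members have long transcripts. The longest protein-coding transcript had a median of 5895.5 bases over the 78 genes, against 3251 bases over the 11902 listed genes with a length. Within the 78, those that fell in ACT vs QS had a median of 6487 bases, those that rose 5991.5 bases, and those not called 3807 bases. In LAC vs KO the 11 that rose had a median of 8350 bases and the 14 that fell 6148.5 bases.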
